A study of Mus with 2 samples.

Results

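Cluster 0 is the first of 8 cell clusters that the authors defined in the epithelium of the mouse distal ileum. It is described here by the 127 genes that the authors' deposited table of cluster markers lists for it, out of 8995 different genes in any deposited table. Each listed gene was higher in the cells of cluster 0 than in all other cells, with both genotypes combined. At the head of that list stood Lypd8, Reg3b, Krt19, Plac8 and Reg3g. Cluster 1, with 240 listed genes, serves as the comparison.

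Sorted ileal epithelial cells were profiled with inDrops, a droplet method that gives each cell's RNA a barcode. The control sample had the genotype Nav1.8Cre-/-DTA+/- and the nociceptor knockout sample had Nav1.8Cre+/-DTA+/-, both at Baseline. The 2 samples therefore share the DTA+/- allele, which encodes a diphtheria toxin fragment, and differ in the Cre transgene, driven from the sensory neuron sodium channel gene Nav1.8. Per the deposited library sheet, each sample pooled 3 male mice of 8 weeks, and 18500 cells in all were spread over 7 sub-libraries. That sheet also names hashtag antibodies, which can mark the cells of single mice, but no table used here separates the mice. With 1 pooled sample per genotype there was no replicate, so no test, error or p-value is given for any comparison. Read depth per cell is not given in the tables used here.

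The villus epithelium renews from crypt stem cells, and enterocytes change their programme as they climb from the base of the villus to its tip. In mice, lower villus enterocytes are known for secreted antimicrobial lectins of the Reg3 family, and upper villus enterocytes for lipoprotein and purine metabolism genes. Reg3 lectins bind bacterial surfaces, and Reg3g keeps bacteria away from the ileal surface. Lypd8 is a membrane-anchored protein that binds the flagella of motile bacteria.

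The lectin genes and Lypd8 led the list. In the authors' deposited table Lypd8 had a log2 fold change (log2FC, the cluster over all other cells) of 1.38 and was detected in 99.3% of cluster 0 cells and 92.1% of all other cells. Reg3b had a log2FC of 1.24 and Reg3g of 0.87 in the authors' deposited table. Both lectin genes were detected in every cell inside and outside the cluster, at the 0.1% resolution of the authors' deposited table, so cluster 0 differed from the rest in their level and not in their detection. RNA from burst cells that enters droplets was not separated from the cells' own RNA in these values. The third Reg3 gene, Reg3a, behaved otherwise: the authors' deposited table gave it a log2FC of 0.43, with detection in 33.0% of cluster 0 cells and 9.8% of other cells. The 3 Reg3 genes are close paralogs, and the sources used here do not give how reads that match several of them were counted.

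Of 7 measured genes on a list of bactericidal lectins and lower villus genes, 5 were listed for cluster 0, against a background of 1.41% of all 8995 genes. This list holds Lypd8, Reg3b and Reg3g, which were given as markers of the cluster, and was chosen with earlier results of these data known. The count is therefore no test. The same list had 0 genes for cluster 1, where the background was 2.67%, and 1 gene, Lypd8, for cluster 4. Besides Lypd8 and the Reg3 genes, the fifth member was Ccl25, the small intestinal chemokine that draws CCR9-bearing lymphocytes to the epithelium. Ccl25 had a log2FC of 0.67 in the authors' deposited table and detection in 75.3% of cluster 0 cells and 39.1% of other cells. That gap of 36.2 points was the widest of the 127 genes. The other measured members, Nlrp6 and Il18, which act in the epithelial inflammasome pathway, were not listed for cluster 0.

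**Figure D1:**
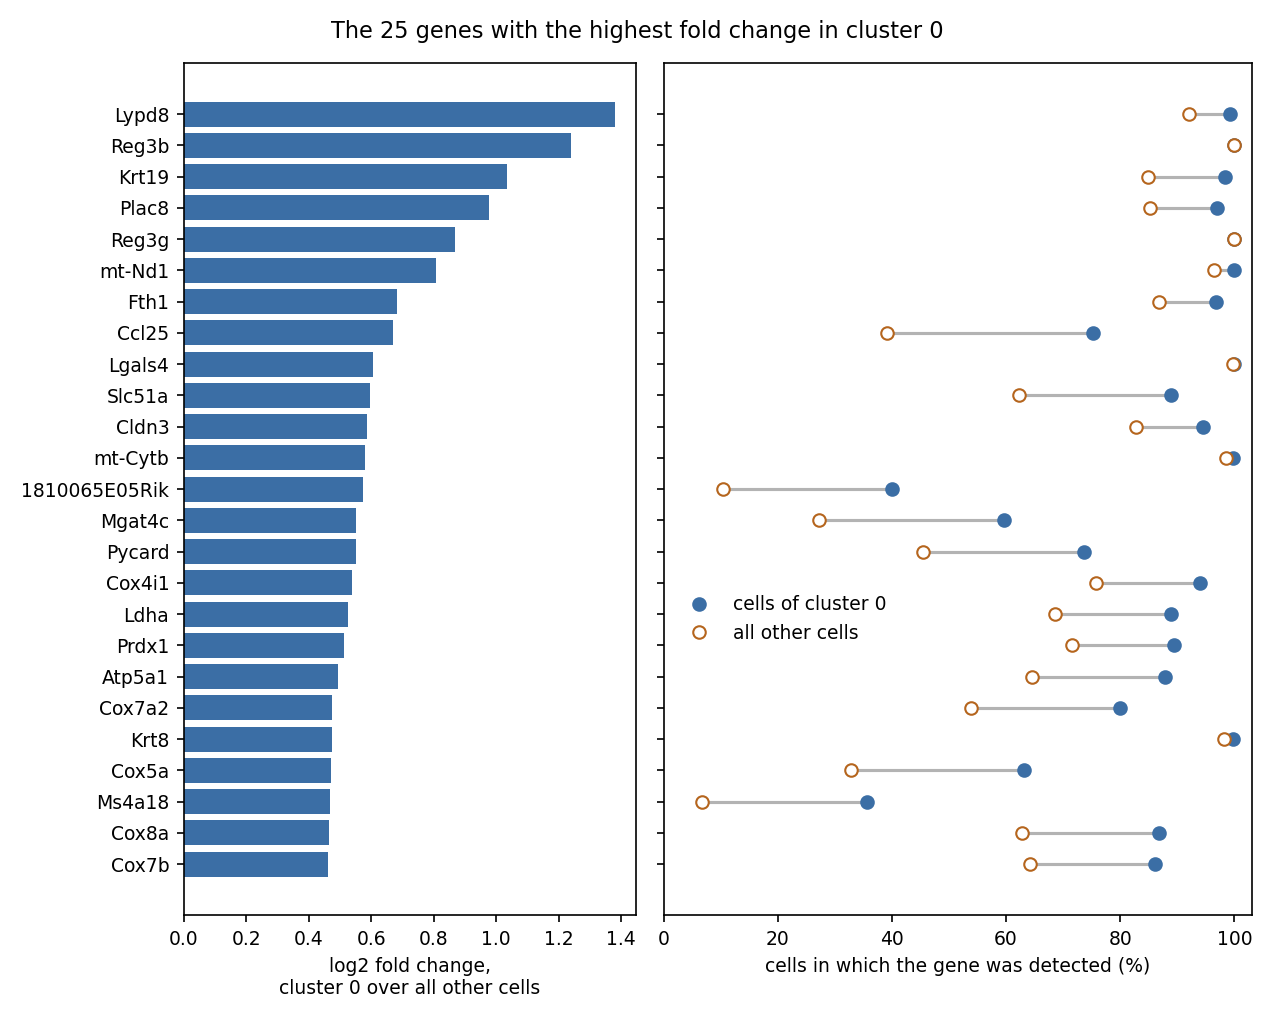
The 25 cluster 0 genes with the highest log2 fold change in the authors' deposited table: bars at the left give the log2 fold change over all other cells, and points at the right the percent of cells with the gene detected, filled for cluster 0 and open for all other cells. Lypd8 at 1.38, Reg3b at 1.24 and Krt19 at 1.04 are the 3 genes above 1, and Ccl25 has the widest gap between its points (75.3% and 39.1%).

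Other mucosal defence genes were fewer in cluster 0 than in cluster 1. Of 22 measured genes on that list, 4 were listed for cluster 0, 10 for cluster 1 and 4 for cluster 4 in the authors' deposited table. The shares over all genes were 1.41% for cluster 0 and 2.67% for cluster 1, so the counts come from lists of unequal length. The 4 in cluster 0 were Plac8, Lgals4, Pigr and Dmbt1. Plac8, a cysteine-rich protein found in epithelial and myeloid cells, had a log2FC of 0.98 in the authors' deposited table and was detected in 97.0% of cluster 0 cells and 85.2% of the rest. Lgals4, an intestinal galectin of the apical membrane, had a log2FC of 0.61 in cluster 0 and 0.59 in cluster 4. It was detected in nearly every cell, inside cluster 0 and outside it (99.8%). Pigr is the receptor that carries IgA across the epithelium. In the authors' deposited table it had a log2FC of 0.35 in cluster 0 and 0.42 in cluster 3. Its detection was 98.5% in cluster 0 and 92.5% in other cells. Dmbt1, a scavenger receptor protein that binds bacteria, had a log2FC of 0.31 in cluster 0, with detection of 44.1% and 26.5% in the authors' deposited table. Pycard, the adaptor that joins inflammasome sensors to caspase-1, lay outside these lists and had a log2FC of 0.55 in the authors' deposited table and detection of 73.6% and 45.4%.

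Antigen presentation genes were listed for cluster 1. Of 7 measured class II presentation genes, 0 were listed for cluster 0 and 4 for cluster 1 in the authors' deposited table. Of 16 measured class I presentation genes, 0 were listed for cluster 0 and 4 for cluster 1. Of 15 interferon-stimulated genes, 0 were listed for cluster 0 and 2 for cluster 1 in the authors' deposited table. With 1.41% of all genes listed for cluster 0, a count of 0 on lists as short as these lies close to that share. The share can include genes detected in too few cells to be listed, however. In the authors' enterocyte sheet, described below, 331 genes were detected in at least 50% of either group, and 79 of them were cluster 0 genes. What a count of 0 means was therefore not tested, here or for the other lists with 0 genes given below.

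Among structural genes, Krt19, an intermediate filament keratin of simple epithelia, had a log2FC of 1.04 in the authors' deposited table. It was detected in 98.3% of cluster 0 cells and 84.9% of the rest in the authors' deposited table. Krt8, a type II keratin that pairs with type I keratins such as Krt19 or Krt18, had a log2FC of 0.47 in the authors' deposited table and detection of 99.8% and 98.2%. Of 6 measured simple keratins, 2 were listed for cluster 0, 1 each for clusters 1 and 3, 2 each for clusters 4 and 6, and 3 for cluster 7. The shares over all genes were 1.41% for cluster 0 and 2.67% for cluster 1. Krt8 was also listed for cluster 7, at 0.81, and Krt19 for cluster 3, at 0.28. Cldn3, a tight junction claudin, had a log2FC of 0.59 in the authors' deposited table and detection of 94.5% and 82.7%.

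Mitochondrial energy genes made up the largest group by number. Of 87 measured nuclear genes of oxidative phosphorylation, the authors' deposited table listed 31 for cluster 0, 0 for cluster 1 and 60 for cluster 2. The shares over all genes were 1.41%, 2.67% and 8.46% for these clusters. Cluster 2 is the one that also carried 20 of 42 measured proliferation genes and 76 of 81 ribosomal protein genes, lists that had 0 genes for cluster 0. The cluster 0 fold changes of the 31 genes were small, from 0.25 to 0.54 on the log2 scale with a median of 0.34 in the authors' deposited table. By complex, ATP synthase had 12 of 19 measured genes listed for cluster 0 and cytochrome c oxidase (complex IV) had 9 of 14. Complex III, which passes electrons to cytochrome c, had 5 of 10, complex I, the NADH dehydrogenase, had 5 of 36, and complex II had 0 of 4. The highest member was Cox4i1, a complex IV subunit, at 0.54, followed by Atp5a1, an ATP synthase subunit, at 0.49 in the authors' deposited table.

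Of 18 measured mitochondrially encoded genes, 7 were listed for cluster 0, 3 for cluster 1 and 2 for cluster 2 in the authors' deposited table. The cluster 1 genes had the larger fold changes, with a median log2FC of 1.18 against 0.40 for cluster 0. They were the ribosomal RNAs mt-Rnr2 at 1.25 and mt-Rnr1 at 1.18, and mt-Co1 at 0.72. mt-Nd1, a complex I subunit, had a log2FC of 0.81 in the authors' deposited table and was detected in every cluster 0 cell and 96.5% of other cells. mt-Cytb, of complex III, had a log2FC of 0.58 there, with detection of 99.8% and 98.5% in the authors' deposited table. A raised share of mitochondrial transcripts can also mark damaged cells in droplet data; the part of cell quality in these values was not tested. Ldha, which makes lactate from pyruvate, had a log2FC of 0.53 in the authors' deposited table.

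By count, redox genes followed the same order of clusters as the nuclear oxidative phosphorylation genes, but not as the mitochondrially encoded genes. Of 17 measured genes of the glutathione and peroxidase list, 5 were listed for cluster 0, 2 for cluster 1 and 9 for cluster 2 in the authors' deposited table. The shares over all genes were 1.41%, 2.67% and 8.46% for these clusters, so the counts come from lists of unequal length. The cluster 0 members included Prdx1 at 0.51, Prdx6 at 0.39, Gpx1 at 0.38 and Gsr at 0.33 in the authors' deposited table, all as log2 fold changes. Prdx1 and Prdx6 are peroxiredoxins, Gpx1 reduces peroxides with glutathione, and Gsr regenerates glutathione. Fth1, the iron-storing ferritin heavy chain, was higher still, at 0.68 in the authors' deposited table with detection of 96.7% and 86.7%.

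**Figure D2:**
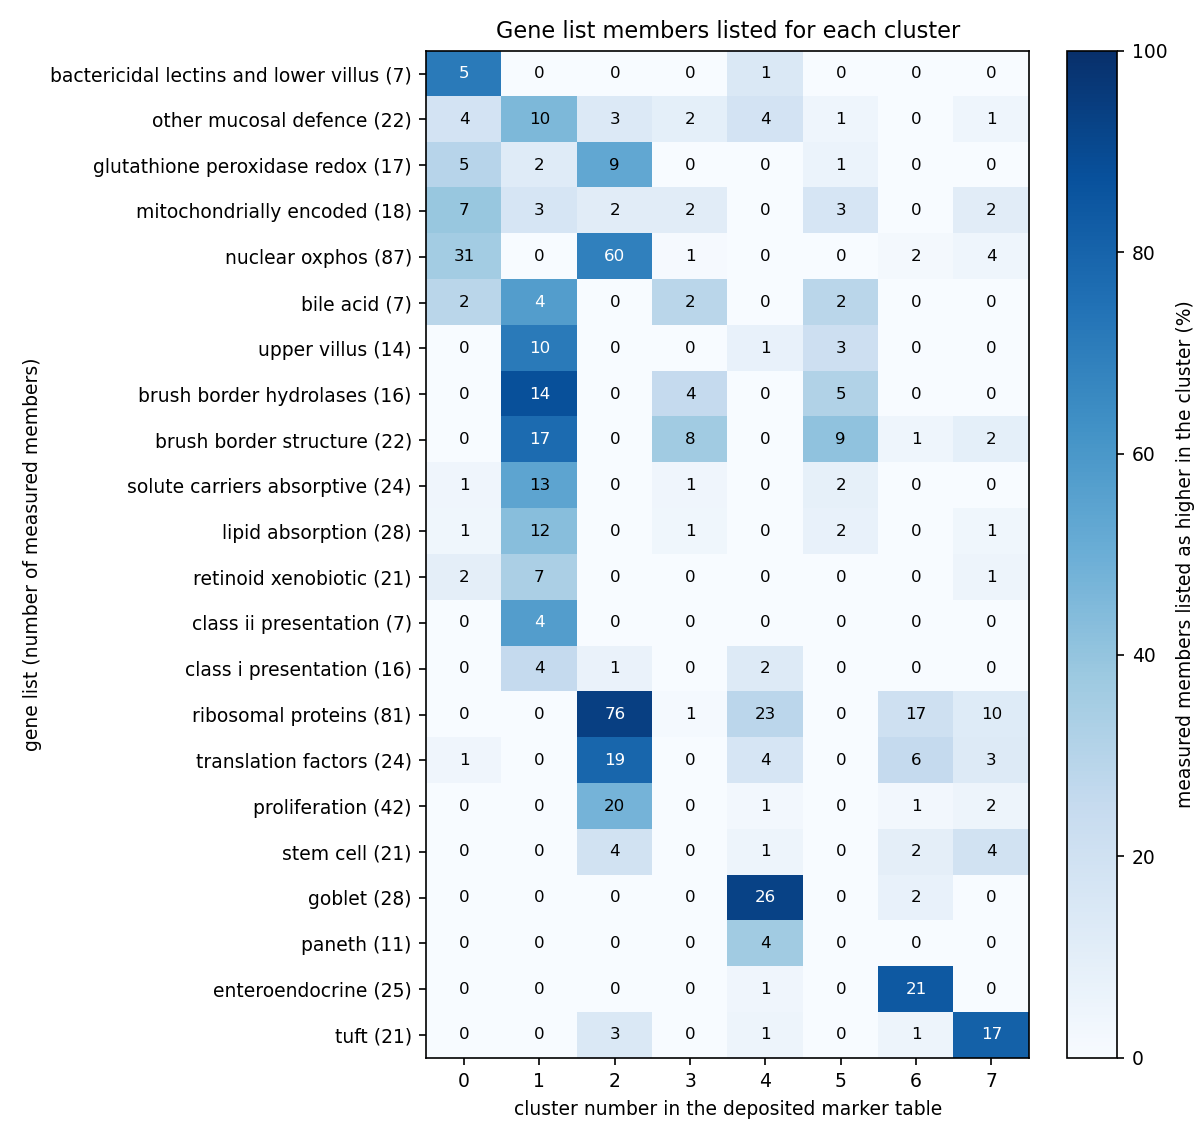
Members of each gene list (rows, with the number measured in brackets) that the authors' deposited table lists for each of the 8 clusters (columns); the number is the count and the shade its percent of the measured members. The lectin list is darkest in cluster 0 (5 of 7), the brush border lists in cluster 1 (17 of 22 for structure), and nuclear oxidative phosphorylation (oxphos) in cluster 2 (60 of 87, against 31 in cluster 0).

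The absorptive programme was represented in cluster 1, for which 2.67% of all genes were listed. Of 14 measured upper villus genes, 0 were listed for cluster 0 and 10 for cluster 1 in the authors' deposited table. Brush border hydrolases, the membrane enzymes that finish digestion, had 0 and 14 of 16 listed. Genes of brush border structure had 0 and 17 of 22. Absorptive solute carriers had 1 and 13 of 24, and lipid absorption genes had 1 and 12 of 28 in the authors' deposited table. The single carrier was Slc51a, one chain of the basolateral bile acid exporter, and the single lipid gene was Agpat2, which makes phosphatidic acid on the way to triglyceride.

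Bile acid genes were split between the clusters. Of 7 measured, 2 were listed for cluster 0, 4 for cluster 1 and 2 each for clusters 3 and 5 in the authors' deposited table. The shares over all genes were 1.41% for cluster 0 and 2.67% for cluster 1. Slc51a had a log2FC of 0.59 in cluster 0 and 0.45 in cluster 1 in the authors' deposited table. Nr1h4, the bile acid receptor FXR, was listed for cluster 0 at 0.26 and for cluster 3 at 0.30 in the authors' deposited table. It was detected in 43.6% of cluster 0 cells and 22.3% of other cells. Of 21 retinoid and xenobiotic genes, 2 were listed for cluster 0 and 7 for cluster 1. Gsta1, a glutathione transferase, had the lowest detection of all 127 genes, 26.4% of cluster 0 cells against 5.3% of others, with a log2FC of 0.32 in the authors' deposited table.

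The name enterocyte for cluster 0 was not shown by its own list. Of 16 measured enterocyte markers, among them Fabp1, Vil1 and Alpi, 0 were listed for cluster 0 and 15 for cluster 1 in the authors' deposited table. A gene absent from the list was not higher past the table's limits, and may still be expressed. Goblet, Paneth, enteroendocrine and tuft marker lists also had 0 genes for cluster 0, as did the stem cell list. Of markers of other cells that a sort could let through, 2 of 19 T cell, 1 of 17 B cell and myeloid and 1 of 20 stromal, endothelial and nerve genes were measured in any table, and 0 were listed for cluster 0. Over all 30 gene lists, 19 had 0 genes for cluster 0, and 67 of its 127 genes stood on no list.

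The cluster 0 list was a shallow one beside that of cluster 1. Its median log2 fold change was 0.36, and 3 of 127 genes reached 1, against 24 of 240 for cluster 1 in the authors' deposited table. Clusters 3 and 5 had slightly lower medians, 0.340 and 0.355 against 0.357 for cluster 0. At least 0.5 was reached by 18 genes of cluster 0 and 102 of cluster 1. The lowest was Slc25a5, the mitochondrial ADP/ATP carrier, at 0.25 in the authors' deposited table, which lists no gene below that value. Detection was broad: 30 genes were found in at least 90% of cluster 0 cells, and 55 in at least 50% of the other cells as well. The median gap in detection was 20.9 points for cluster 0 and for cluster 1, but the widest gap was 36.2 points for cluster 0 and 66.6 for cluster 1.

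**Figure D3:**
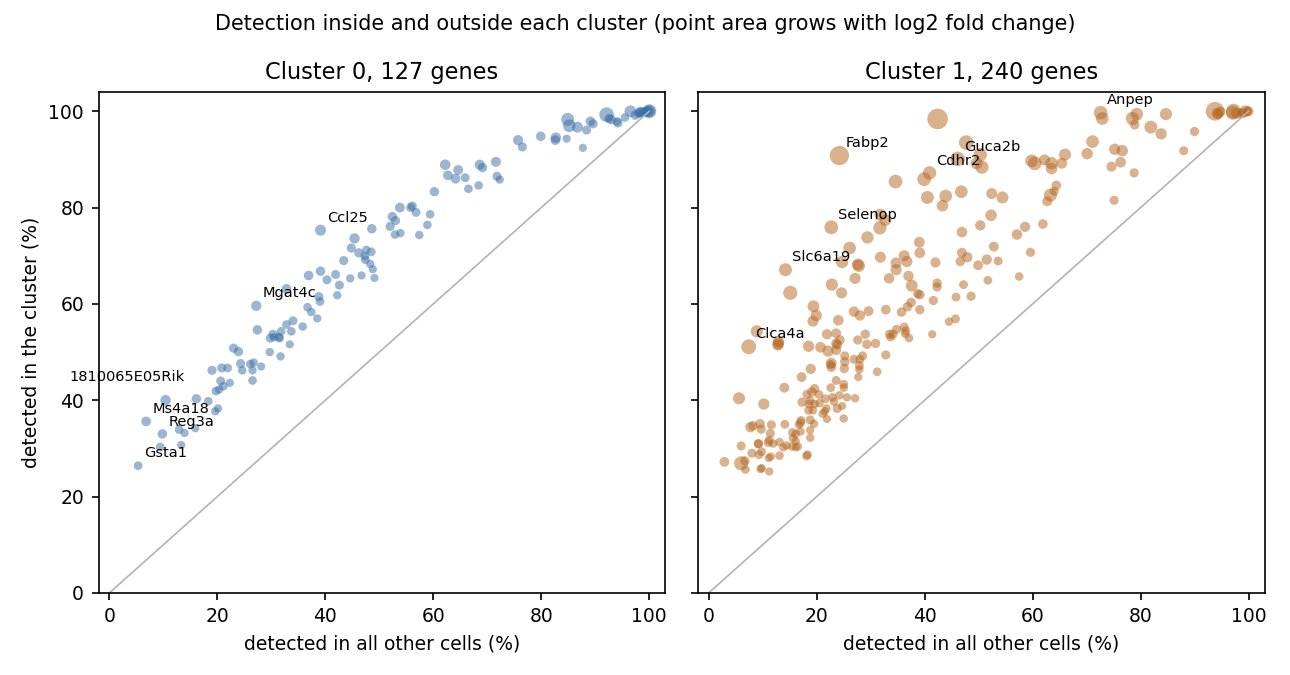
Percent of cells in which each listed gene was detected, inside the cluster (vertical) and in all other cells (horizontal), from the authors' deposited table; point area grows with log2 fold change and the line marks equal detection. Cluster 0 genes form a band near the line (widest gap 36.2 points), and cluster 1 genes reach farther from it (66.6 points).

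The size of the cluster is not given in the tables but follows from them. A gene listed for several clusters has 1 detection share over all cells, whichever cluster is set against the rest, so that the shares inside and outside fix the cluster sizes. Over 342 such genes, cluster 0 held 27.7% of all cells and cluster 1 held 25.7%, followed by cluster 2 with 15.7%. The 8 shares, fitted without a fixed total, added up to 100.1%, and the largest misfit of any gene was 0.0954 points. Cluster 0 was thus the largest of the 8 clusters by cells, while its list was shorter than that of 5 other clusters.

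With these sizes, the detecting cells of each gene can be placed. For 35 of the 127 genes, at least 40% of all cells that detected the gene lay in cluster 0, and for 6 genes at least 50% did. Ms4a18, a member of the tetraspanning MS4A family, had 66.7% of its detecting cells in cluster 0, with detection of 35.6% inside and 6.8% outside in the authors' deposited table. Gsta1 had 65.6%, 1810065E05Rik had 59.5% and Reg3a had 56.3% of their detecting cells there. For Reg3b and Reg3g the value was 27.7%, the share of the cluster itself, since their detection rounds to all cells inside and outside it. The genes with the largest fold changes were therefore not those most restricted to the cluster.

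Detection outside the cluster also limits how common a gene can be in cluster 1, where it is not listed. Ms4a18 could be detected in at most 19.1% of cluster 1 cells and Gsta1 in at most 14.9%, both under their shares in cluster 0 (35.6% and 26.4% in the authors' deposited table). Reg3a could reach 27.5% in cluster 1 against 33.0% in cluster 0. Such a limit lay under the cluster 0 share for 20 of the 120 genes that cluster 1 does not list. In the other direction, it lay under the cluster 1 share for 56 of 233 genes. Clca4a, a chloride channel accessory protein, was detected in 51.1% of cluster 1 cells in the authors' deposited table and could be detected in at most 9.99% of cluster 0 cells. Slc6a19, the main neutral amino acid carrier, was detected in 67.1% of cluster 1 cells in the authors' deposited table, with a limit of 38.1% in cluster 0. For the other genes the limits leave the order of detection between clusters 0 and 1 undetermined.

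Clusters 0 and 1 shared 7 genes, which is 5.51% of the cluster 0 list and 2.92% of the cluster 1 list. Over all genes, 2.67% were listed for cluster 1 and 1.41% for cluster 0. These backgrounds can include genes detected in too few cells to be listed. In the authors' enterocyte sheet, described below, 331 genes were detected in at least 50% of either group. Among these, 125 were cluster 1 genes and 79 cluster 0 genes. Whether 7 shared genes are many or few was not tested. The shared genes included Slc51a, S100a10, Anxa2, Serpinb1a, Ces2e and Slc25a5. Ces2e, a carboxylesterase, had the widest difference in fold, 0.30 in cluster 0 and 0.58 in cluster 1 on the log2 scale in the authors' deposited table. It was detected in 71.2% of cluster 0 cells, 74.9% of cluster 1 cells and 32.5% of cells outside both. S100a10 and Anxa2, which form one complex under the plasma membrane, had log2 fold changes of 0.45 and 0.39 in cluster 0 and 0.40 and 0.38 in cluster 1 in the authors' deposited table. Each cluster was among the other's comparison cells, so these fold changes are not independent.

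Cluster 2, which lists 761 genes or 8.46% of all genes, shared 47 genes with cluster 0, or 37.0% of the cluster 0 list and 6.18% of its own. Their median log2 fold change was 0.35 in cluster 0 and 0.48 in cluster 2 in the authors' deposited table, and the fold change was higher in cluster 0 for 11 of the 47. Median detection was 70.8% in cluster 0, 80.0% in cluster 2 and 39.7% outside both. Of the 47, 29 were nuclear oxidative phosphorylation genes, and all 29 were detected in a larger share of cluster 2 cells than of cluster 0 cells. Pycard and Dmbt1 were also on both lists, at 1.28 and 0.89 in cluster 2 in the authors' deposited table, above their cluster 0 values of 0.55 and 0.31. mt-Nd1 was among the genes in the opposite order, with 0.81 in cluster 0 and 0.50 in cluster 2 in the authors' deposited table. In contrast, Reg3b, Reg3g, Reg3a and Ccl25 were not on the cluster 2 list. In all, 56 of the 127 cluster 0 genes were listed for no other cluster, against 169 of 240 for cluster 1.

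Some cluster 0 genes are neighbours in the genome (GRCm38.p6 of the RefSeq gene table, the assembly that mm10 is built from). By symbol, 116 of the 127 genes matched that table, and 7 pairs lay less than 100 kb apart. The Reg3 genes are on chromosome 6, with Reg3b at chr6:78370885-78373466, Reg3a at chr6:78380709-78383839 and Reg3g at chr6:78466269-78468874. Lypd8 (chr11:58379032-58390541) lies 30.6 kb from 1810065E05Rik (chr11:58421111-58426023). That gene had a log2FC of 0.57 in the authors' deposited table and detection of 40% inside and 10.4% outside. Ms4a18 and Ms4a8a, of the same family, lie 49.4 kb apart on chromosome 19.

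The authors also deposited a sheet of genotype comparisons for each of 5 cell types, with a fold change of a first group over a second. The sheets do not name the genotype of either group, and whether all 5 use 1 order is not stated, so the values below are group 1 over group 2 and carry no direction by genotype. Nor do they say which cells of the enterocyte sheet belong to cluster 0. Fewer cells of a type and less RNA per cell cannot be told apart in values averaged over a sheet.

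In the enterocyte sheet the cluster 0 genes lay below 0 as a group. All 127 were listed there, 118 of them (92.9%) below 0, against 78.6% of all 3426 genes of the sheet. Their median log2 fold change was -0.14, and that of all genes was -0.03, in the authors' deposited table. At or below -0.2 stood 34 of the 127 (26.8%), against 2.89% of all genes, and at or above 0.2 stood 0, against 0.438%. Cluster 1 genes lay on the other side: of 240, 82 were below 0 (34.2%), 14 were at or above 0.2, and the median was 0.03 in the authors' deposited table.

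Widely detected genes had a lower median, though a smaller share of them was below 0. The count was therefore repeated among genes found in at least 50% of cells in either group. Of these 331 genes, 70.4% were below 0 and 18.7% at or below -0.2, with a median of -0.08, and 2.72% were at or above 0.2. Of the 79 cluster 0 genes among them, 74 were below 0 and 29 (36.7%) at or below -0.2, with a median of -0.15 in the authors' deposited table. The 85 cluster 2 genes had a median of -0.17, close to that of cluster 0. The cluster 0 median thus lay below the cluster 1 median of 0.03 and near that of cluster 2; these differences were not tested.

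Reg3g had the lowest value of the cluster 0 genes, -0.82 on the log2 scale in the authors' deposited table, and Reg3b stood at -0.66. Both were detected in every cell of both groups in the authors' deposited table. Lypd8 was at -0.42, found in 83.7% of group 1 and 90.6% of group 2 cells in the authors' deposited table. The remaining 2 genes of the lectin and lower villus list, Ccl25 at -0.18 and Reg3a at -0.15, were nearer to the median of the cluster in the authors' deposited table. All 5 were below 0, with a median of -0.42, beside 92.9% of cluster 0 genes and 78.6% of all genes of the sheet below 0. Lypd8, Reg3b and Reg3g among them were given as markers of the cluster.

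The 4 other mucosal defence genes of cluster 0 ranged from -0.50 for Dmbt1 to -0.14 for Pigr, and the 2 keratins stood at -0.29 for Krt19 and -0.11 for Krt8 in the authors' deposited table. Cldn3 was at -0.08, above the median of the cluster 0 genes, in the authors' deposited table. The genes that follow are among the lowest of the cluster 0 list. Dmbt1 was at -0.50, found in 24.9% of group 1 and 40% of group 2 cells in the authors' deposited table. Pycard was at -0.40, with detection of 45.9% and 56.3% in the authors' deposited table. Plac8 was at -0.31 and Krt19 at -0.29 there, with Krt19 detected in 80.5% and 86.1% of cells in the authors' deposited table. Neither was among the 10 lowest. Gmds, which starts the synthesis of GDP-fucose for glycan fucosylation, was at -0.44 with detection of 57.4% and 70.0% in the authors' deposited table. Genes on no defence list were as low: the predicted gene Gm16083 was at -0.72, below Reg3b, in the authors' deposited table. Faxc was at -0.59, with detection of 48.3% and 68.1%, and Arhgap24 at -0.50, with 37.3% and 55.6%. The highest cluster 0 gene was S100a10 at 0.06 in the authors' deposited table.

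The low values were as low without the mitochondrial genes. The 38 nuclear oxidative phosphorylation and mitochondrially encoded genes of cluster 0 had a median of -0.15, and the other 89 genes had -0.14 in the authors' deposited table. mt-Nd1 was the lowest of the 38, at -0.32, with detection of 93.2% and 93.8% in the authors' deposited table. Detection gave no single order: 80 of the 127 genes (63.0%) were detected in fewer cells of group 1, against 72.3% of all genes. Among genes detected in at least 50% of a group, the order turned, with 40 of 79 cluster 0 genes (50.6%) against 43.8% of all genes.

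Among cluster 1 genes the highest in the enterocyte sheet were Apoa1 and 2010109I03Rik, both at 0.50, and Guca2b at 0.42 in the authors' deposited table. Apoa1 is an apolipoprotein of secreted lipid particles, and Guca2b encodes uroguanylin, a gut peptide that regulates salt and water secretion. Saa1, an acute phase protein, was the lowest at -0.32 in the authors' deposited table, and the only cluster 1 gene at or below -0.2 before rounding.

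**Figure D4:**
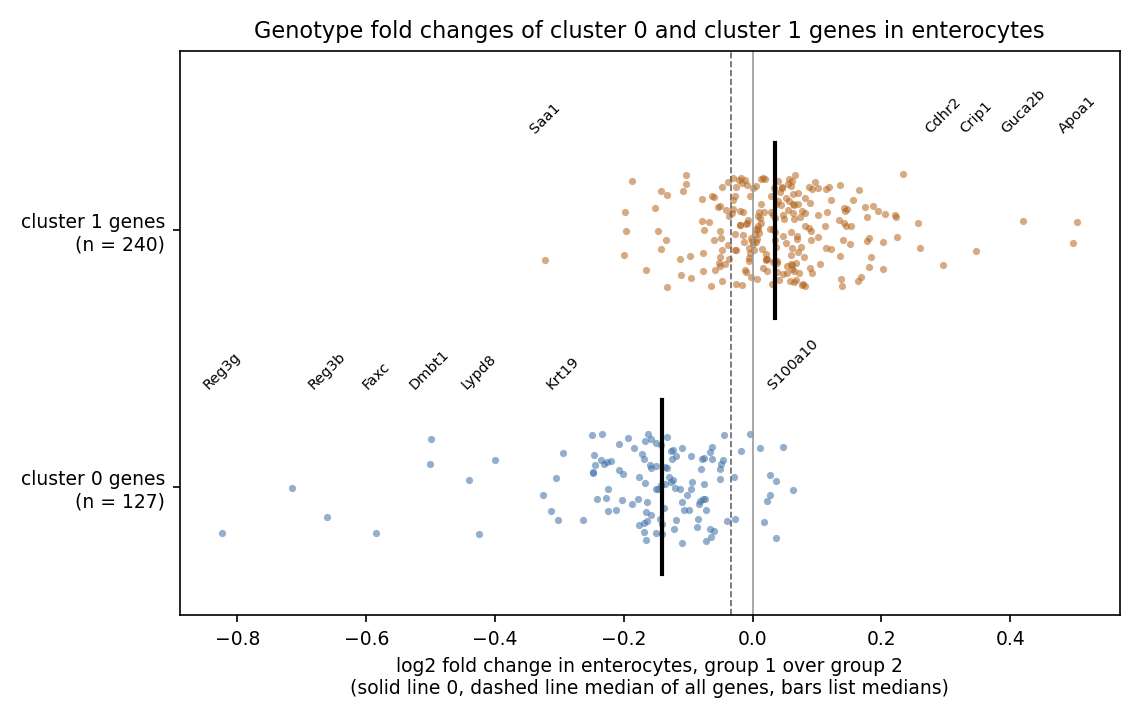
Log2 fold change of group 1 over group 2 (horizontal) in the enterocyte sheet of the authors' deposited table, 1 point per cluster 0 or cluster 1 gene, spread vertically at random; black bars are list medians, the solid line is 0 and the dashed line the median of all genes. Cluster 0 genes have a median of -0.14 and cluster 1 genes of 0.03, beside -0.03 for all genes; the sheet names the genotype of neither group.

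The sheets of other cell types gave a less even picture. In the stem sheet 115 of 126 cluster 0 genes (91.3%) were below 0, the same level as the 91.8% of all its genes. In the goblet sheet 94 of 121 were below 0 (77.7%, against 72.7% of all genes). In the tuft sheet 105 of 120 were below 0 (87.5%, against 68.7%), with a median of -0.50 beside -0.11 for all genes in the authors' deposited table. Tuft cells were few: cluster 7, for which 17 of 21 measured tuft markers were listed, held 0.40% of all cells. Detection shares in the tuft sheet moved in steps of 5.6% for group 1 and 14.3% for group 2, so each group held few cells. In the enteroendocrine sheet 60 of 122 were below 0 (49.2%, against 64.6%), with a median of 0.00. Its detection shares moved in steps of 2.9% and 2.5%, so its groups were small as well.

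Among widely detected genes, the stem and goblet sheets gave the cluster 0 genes nearly the same median as all genes. With detection of at least 50% in either group, the medians were -0.19 and -0.19 in the stem sheet, and -0.13 and -0.12 in the goblet sheet, for cluster 0 and for all genes in the authors' deposited table. The tuft sheet kept a gap, with -0.65 for cluster 0 genes and -0.36 for all genes, values that rest on few cells.

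Reg3g stood below 0 in all 5 sheets, at -0.82 for enterocytes, -0.81 for stem, -0.60 for goblet, -0.26 for enteroendocrine and -1.78 for tuft cells in the authors' deposited table. Reg3b was at -0.66, -0.75, -0.41, 0.10 and -1.87 in the same order of sheets in the authors' deposited table. Lypd8 was at -0.42, -0.15, -0.04, 0.60 and -1.18 there in the authors' deposited table. Reg3g and Reg3b were thus as low in stem as in enterocyte cells, while Lypd8 was nearer to 0 in stem and goblet cells. The enteroendocrine and tuft values rest on few cells. The detection of Reg3b rounds to all cells in every sheet of the authors' deposited table; the share of free RNA in these values was not tested. Krt19 was below -0.2 for enterocytes (-0.29) and tuft cells (-1.30) only, and lay between -0.09 and 0.03 in the other sheets in the authors' deposited table. Of the 117 cluster 0 genes listed in all 5 sheets, 38 (32.5%) were below 0 in every sheet, against 28.0% of all 2476 such genes, so that the share was near the background. Above 0 in every sheet stood 0 of the 117, against 0.687% of all.

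**Figure D5:**
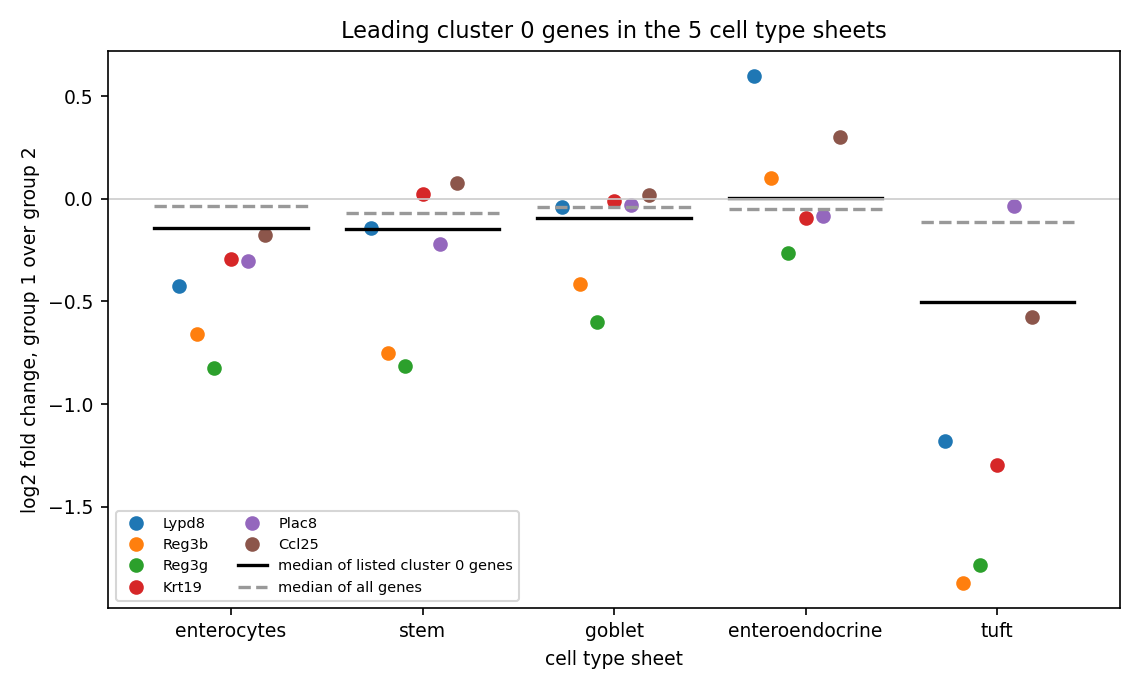
Log2 fold change of group 1 over group 2 (vertical) for 6 leading cluster 0 genes (coloured points) in the 5 cell type sheets of the authors' deposited table; black lines are medians of listed cluster 0 genes and dashed lines medians of all genes. Reg3g is below 0 in every sheet, from -0.26 for enteroendocrine to -1.78 for tuft cells; whether group 1 is the same genotype in each sheet is not stated.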

How the data were processed

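The 2 pooled samples of ileal epithelial cells, 1 per genotype, were compared by their authors, and all values come from their tables. Per the submitters' processing notes, the tools were Cell Ranger, Seurat and DESeq2 1.30.1, and the build was mm10. Which tool made which column, and how cells and doublets were filtered, are points on which the sources used here are silent. Per the file headers, the authors deposited an average log2 fold change per gene, with the detection share as a fraction of cells in each group. The deposited p-values are over single cells and were not used. The marker table of 2096 rows over 8 clusters lists no gene under a log2 fold change of 0.25 or detected in under 25.0% of a cluster's cells.

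Computed here with Python 3.11.15, numpy 2.4.6 and pandas 2.3.3 were counts, medians, overlaps, and cluster sizes. Figures used matplotlib 3.10.9. Cluster sizes came from least squares over genes listed for several clusters, a step tested on simulated data. The limit for a cluster that does not list a gene takes all detecting cells not placed in a cluster that lists it as lying there. Genes named were the leading ones by fold change, in lists, in overlaps and in the enterocyte sheet. Fold limits were 0.2 and 0.5, and the detection limit 50%. Members and lists were chosen with earlier results of these data known. Alternatives covered fold and detection limits, the mean, centring, and leaving out gene classes. Some items are not reported here.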

Additional observations from a re-analysis of the deposited data

How the results depend on the processing

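With a log2 fold change of at least 0.5, cluster 0 kept 18 of its 127 genes, and clusters 0 and 1 shared 0 in place of 7. With detection of at least 50% the counts were 98 and 7. In the enterocyte sheet the median of cluster 0 genes (-0.14) was -0.16 as a mean, -0.15 among genes detected in at least 50% of a group and -0.12 without genes also listed for cluster 2. It was -0.11 after subtracting the median of all genes and -0.0598 after subtracting that of widely detected genes. For cluster 1 genes (0.03) these settings gave 0.0386 as a mean, 0.0352 without genes also listed for cluster 0, 0.0687 and 0.116 after the 2 subtractions. No median changed sign under any of these settings. Leaving out the rows of cluster 2 or 7 left the cell share of cluster 0 at 27.7%. The shared count, the settings without cluster 2 or mitochondrial genes, the second centring and the cell share were chosen after seeing the data. Genes lower in cluster 0, and genes of opposite sign in clusters 0 and 1, were planned but gave no value, since the table lists only higher genes. No paired analysis was possible because each genotype had 1 sample. With no replicates and no depth per cell, the error of any value is unknown.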
